A study of Homo sapiens with 6 samples.

Results

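The receptor kinases MET and RON, their ligands, and the membrane-bound proteases and protease inhibitors that decide whether those ligands become active were followed through acquired resistance to an EGFR-family inhibitor in PC9, a cell line from a human lung adenocarcinoma with mutant EGFR. The members were the 9 genes MET, MST1R (which encodes RON), HGF, MST1, ST14, PRSS8, TMPRSS4, SPINT1 and SPINT2, found by symbol among the 26485 genes of the authors' deposited table. Resistant cells had been selected in dacomitinib, a covalent inhibitor of EGFR-family kinases, at doses climbing from 1 pM up to 100 nM during 6 months, and were sequenced while held at 100 nM (3 libraries). Parental PC9 cells were untreated (3 libraries). Because the drug was present in resistant cells only, selection for resistance and exposure to the drug cannot be told apart. No clone, passage or separate culture is named for any library, so the spread between libraries may be technical.

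MET is the receptor for hepatocyte growth factor, encoded by HGF, and RON is the receptor for macrophage-stimulating protein, encoded by MST1. Both ligands are secreted as inactive single chains and must be cut by a trypsin-like protease before they can activate their receptors. Matriptase (ST14), a type II transmembrane protease of epithelial cells, can cut and activate pro-HGF and pro-MSP, and TMPRSS4 is a protease of the same type. Prostasin (PRSS8), held on the membrane by a lipid anchor, works in a mutual activation loop with matriptase. HAI-1 (SPINT1) and HAI-2 (SPINT2) are membrane-bound Kunitz-type inhibitors that block matriptase and prostasin. In EGFR-mutant lung cancer, gain of MET or supply of HGF is a known route around EGFR inhibition.

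Of the 9 members, 8 were tested per the authors' deposited table, where 3 were lower in resistant cells (ST14, PRSS8 and MST1R), 1 was higher (SPINT2) and 4 did not pass (MET, MST1, SPINT1 and TMPRSS4). HGF was listed at 0. Over all 13494 tested genes 14.8% were called lower and 13.3% higher per the authors' deposited table. A call is an adjusted p under 0.05 in the authors' Wald test, two-sided, and a fold change is a log2 ratio of resistant to parental cells with its standard error (SE), read in that direction from the design because the table does not state it. In bulk RNA, fewer cells of a kind and less RNA per cell cannot be told apart.

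The promoters of both receptor genes and of HGF are printed because MST1R was called lower, MET was not called, and HGF gave no read. Each sequence is RefSeq's, on GRCh38.p14, from 250 bases before to 50 bases after the gene's start in RefSeq, 5′ to 3′ in the gene's direction. The gene positions given further on are from GENCODE 29, whose outermost start for MET and for HGF differs from RefSeq's, so that the MET stretch ends before the GENCODE gene and the HGF stretch lies inside it. Capitals mark every match, on either strand, of CACCTG, an E-box that repressors of epithelial genes can bind, or of GGGCGG, a GC box.
MET, chr7:116671946-116672245, plus strand: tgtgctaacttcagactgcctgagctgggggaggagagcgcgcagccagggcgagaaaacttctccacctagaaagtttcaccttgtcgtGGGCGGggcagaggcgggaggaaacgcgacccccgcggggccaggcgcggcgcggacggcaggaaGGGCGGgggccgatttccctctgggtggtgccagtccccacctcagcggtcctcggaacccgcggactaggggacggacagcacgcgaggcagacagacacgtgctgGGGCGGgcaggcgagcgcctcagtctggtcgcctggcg
MST1R, chr3:49903824-49904123, minus strand: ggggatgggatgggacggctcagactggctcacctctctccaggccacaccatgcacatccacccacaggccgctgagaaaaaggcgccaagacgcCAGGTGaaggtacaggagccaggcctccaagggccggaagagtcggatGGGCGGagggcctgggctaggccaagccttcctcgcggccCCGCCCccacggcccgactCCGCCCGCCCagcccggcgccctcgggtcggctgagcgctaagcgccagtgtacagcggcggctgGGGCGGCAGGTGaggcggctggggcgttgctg
HGF, chr7:81769998-81770297, minus strand: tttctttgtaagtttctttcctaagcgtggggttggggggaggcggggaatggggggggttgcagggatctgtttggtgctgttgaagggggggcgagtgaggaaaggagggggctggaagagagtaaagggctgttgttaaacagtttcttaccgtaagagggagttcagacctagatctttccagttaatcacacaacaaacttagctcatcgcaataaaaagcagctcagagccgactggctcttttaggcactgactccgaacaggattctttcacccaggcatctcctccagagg
The MST1R promoter held 2 matches of CACCTG and 5 of GGGCGG, of which 2 overlap each other. In the MET promoter 0 matches of CACCTG and 3 of GGGCGG were found. HGF had neither, a GC content of 51% and 7 CpG pairs, against 69.3% and 30 for MET and 71.3% and 25 for MST1R. Of all 35116 promoters of this length, 20.6% held CACCTG and 45% held GGGCGG. Their median GC content was 58.7%, and these shares were not matched to the GC content of the members. A match describes these letters and says nothing of a factor's binding. The table of promoters held 5 of the 9 members, and ST14, PRSS8, TMPRSS4 and SPINT2 were not among them.

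The authors' deposited table gives 1 mean per gene over all libraries, but this mean is a sum of whole reads, each worth a fixed amount per library, printed to 15 digits. The reads of each library could therefore be worked back for 12948 of 13494 tested genes (96%), including 7 of the 8 tested members. For MST1 and TMPRSS4, 1 set of reads gave the deposited mean. For the more abundant members, sets were sought only near the group means that the deposited fold change and SE give. For MST1R and PRSS8, 1 such set gave the deposited mean. For MET, SPINT1 and ST14 there were 10, 12 and 214 such sets, of which 1 also gave the deposited fold change, to within 1e-06. SPINT2 was too abundant for this. Whether a read here is a sequenced read or a molecule counted once by its barcode is not given in the sources used here. The reads so recovered summed to between 1918674 and 2474852 per resistant library and between 1006090 and 2048378 per parental library, which is a part of each library and not its depth. Libraries are given below in a fixed order, with size factors (relative depths) of 1.37, 1.19 and 1.06 in resistant cells and of 1.08, 1.03 and 0.539 in parental cells. They could not be tied to replicate numbers, and their group rests on the sign of the authors' fold change. Around their group mean, libraries deviated by an SD of 0.107 to 0.147 log2 units over 6410 genes with a mean count of 50 or more, the widest being the shallowest parental library.

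MET transcript did not pass the test between resistant and parental cells. Its normalized counts were 334, 317 and 343 in resistant libraries, against 310, 276 and 326 in parental libraries, from 1200 reads in resistant and 797 in parental cells. The groups overlapped, since the highest parental library lay above the lowest resistant one. The log2 fold change per the authors' deposited table was 0.13 ± 0.11 (SE), with an adjusted p of 0.452 and a 95% interval from -0.09 to 0.36, that is from 0.939-fold to 1.28-fold. The gene lies at chr7:116672390-116798386 on the plus strand of GRCh38, the build of every position given here.

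MST1R, the gene of RON, fell in resistant cells. It had 104, 105 and 94.0 normalized counts in resistant libraries and 159, 154 and 145 in parental libraries. Every resistant library lay below every parental one. The mean was 101 ± 6.03 in resistant cells and 152 ± 7.08 in parental cells (SD, n = 3 each). In the table deposited by the authors the log2 fold change was -0.60 ± 0.16 with an adjusted p of 0.00158, and its 95% interval ran from -0.92 to -0.28. MST1R lies at chr3:49887002-49903873 on the minus strand, and antisense transcripts that are not in the table overlap it.

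**Figure D1:**
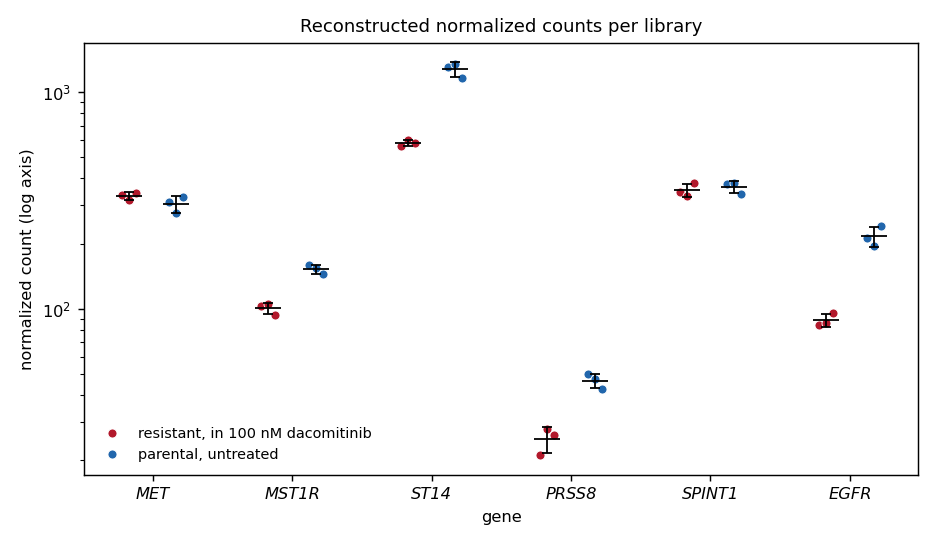
Normalized counts per library (log axis) for 5 members and EGFR, with resistant libraries in red on the left and parental libraries in blue on the right of each gene; bars are the mean ± SD of 3 libraries. MST1R, ST14, PRSS8 and EGFR have no overlap between groups, while MET and SPINT1 overlap.

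EGFR, the drug's target, fell by 1.28 ± 0.16 log2 units per the authors' deposited table (adjusted p = 2.19e-14). Its normalized counts were 83.8, 85.8 and 95.9 in resistant libraries and 213, 195 and 241 in parental libraries. Within a library, the reads of one gene over those of another do not depend on the scaling between libraries. MET had 3.98, 3.70 and 3.58 reads per EGFR read in resistant libraries, against 1.45, 1.41 and 1.35 in parental libraries. That ratio was 2.67 times as high in resistant cells, at an exact permutation p of 0.1, two-sided, which is the smallest that 3 against 3 libraries allow. MST1R had 0.310, 0.332 and 0.274 reads per MET read in resistant libraries and 0.512, 0.558 and 0.443 in parental libraries, again without overlap (exact permutation p = 0.1). In all, 5 such ratios were computed, and adjusted over them the p of each ratio whose groups did not overlap was 0.125. A ratio is compared between groups here and is not a ratio of molecules, since the 3′ ends of different genes are not captured equally well.

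Neither ligand was well represented. HGF, at chr7:81699008-81770438, was listed at 0 per the authors' deposited table. A count of 0 over 6 libraries allows up to 3 reads, or a mean of 0.478 normalized counts, and covers counting error only. MST1, at chr3:49683947-49689501, had 3, 3 and 2 reads in resistant libraries, against 1, 8 and 1 in parental libraries. Most of the parental reads came from 1 library, and the authors' deposited table gave no call (-0.72 ± 1.09, adjusted p = 0.708). MST1 has near-identical copies, so its reads are uncertain. One copy, MST1P2, had 2, 3 and 1 reads in resistant and 1, 1 and 1 in parental libraries, and another, MST1L, was listed at 0 per the authors' deposited table. Among relatives of the ligands and of plasminogen 3 genes were tested, of which PLGRKT, a plasminogen receptor gene, rose (0.42 ± 0.14) and MST1 and MST1P2 had no call, per the authors' deposited table. The last 17 bases of MST1 also overlap APEH, which lies on the opposite strand and had a mean count of 549 per the authors' deposited table.

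ST14, the gene of matriptase, showed the largest called change of the members. Its normalized counts were 566, 598 and 583 in resistant libraries, against 1308, 1350 and 1163 in parental libraries. The resistant libraries lay close together and far below the parental ones, with means of 583 ± 16.0 in resistant and 1274 ± 98.0 in parental cells (SD, n = 3 each). The log2 fold change per the authors' deposited table was -1.13 ± 0.08 (adjusted p = 1.43e-40), which leaves 54.5% less transcript in resistant cells. ST14 lies at chr11:130159562-130210376 on the plus strand. All 16 tested genes with a mean count of 50 or more that start within 5 Mb of it were below 0, 13 of them called lower, with a median of -0.92. Relative to that median ST14 stood at -0.22 (adjusted p = 0.0335), and its rank from the lowest was 6. This p takes the median as fixed and uses the SE of ST14 alone, so it does not test ST14 against its neighbours.

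PRSS8, the gene of prostasin, fell in resistant cells and was far less abundant than ST14 in reads. It gave 29, 33 and 28 reads in resistant libraries and 54, 49 and 23 in parental libraries, the last from the shallowest one. Scaled for depth these were 21.1, 27.8 and 26.3 normalized counts in resistant libraries, against 49.8, 47.4 and 42.7 in parental libraries, without overlap. The authors' deposited table gave -0.91 ± 0.30 with an adjusted p of 0.0114, and a 95% interval from -1.50 to -0.32. PRSS8 lies at chr16:31131433-31135762, among genes that did not go the same way. Of 59 tested genes with a mean count of 50 or more within 5 Mb of its start, 41 were above 0, with a median of 0.13, and relative to it PRSS8 stood at -1.04. An antisense transcript that is not in the table covers the 3′ end of PRSS8, and whether counting used strand is not given in the sources used here.

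TMPRSS4 was at the edge of detection. It had 0 reads in each resistant library, and its 6 reads in parental cells came from 1 library alone. No fold is given for it, and the authors' deposited table did not call it (adjusted p = 0.574). The gene lies at chr11:118077012-118121890. Of 40 tested genes with a mean count of 50 or more within 5 Mb of its start, 31 were below 0. Their median was -0.41, and 22 of them were called lower.

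Among the reconstructed members, 3 of 7 had resistant libraries wholly below the parental ones (MST1R, ST14 and PRSS8), and 0 wholly above. Over the 12948 tested genes whose reads could be worked back, 23.1% had their resistant libraries wholly below and 24.8% wholly above, 47.9% in either direction.

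Neither inhibitor was called lower. SPINT1, the gene of HAI-1, had 348, 332 and 380 normalized counts in resistant libraries, against 375, 380 and 338 in parental libraries. The groups overlapped. Its log2 fold change per the authors' deposited table was -0.06 ± 0.11 (adjusted p = 0.782), with a 95% interval from -0.27 to 0.16. SPINT1 lies at chr15:40844018-40858207. SPINT2, the gene of HAI-2, was the most abundant member, with a mean count of 6302 per the authors' deposited table, above 99.4% of tested genes. It rose by 0.17 ± 0.07 per the authors' deposited table (adjusted p = 0.0310), a 1.13-fold difference with a 95% interval from 1.03-fold to 1.23-fold. Centred on the median of genes within 5 Mb, taken as fixed, the value was 0.15, close to the 0.17 without centring. It was then not called (adjusted p = 0.0713). SPINT2 lies at chr19:38244035-38292614, and a second gene on the same strand, not in the table, covers its 3′ end.

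**Figure D2:**
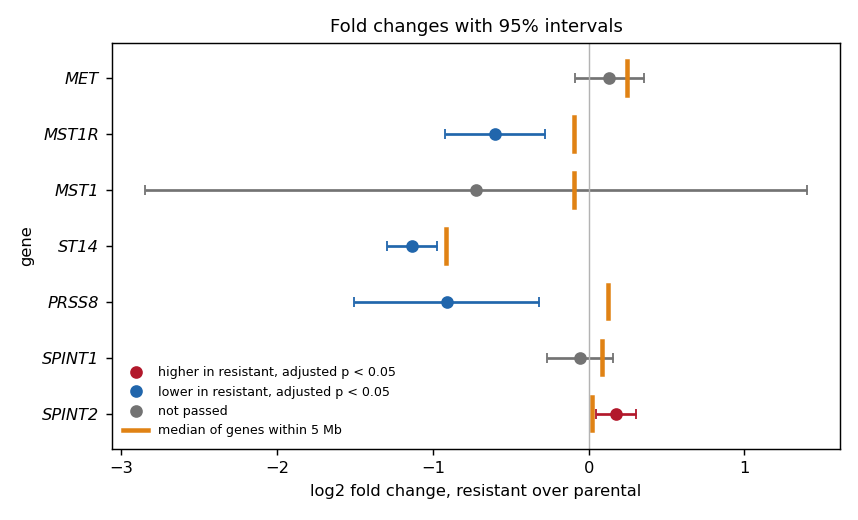
Log2 fold change of resistant over parental cells with 95% intervals for the 7 members whose fold is given; blue is called lower, red called higher and grey not passed, and the orange tick is the median of well-expressed genes within 5 Mb. ST14 lies close to a tick at -0.92, whereas MST1R and PRSS8 lie below ticks at -0.09 and 0.13.

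Protease and inhibitor transcripts were also set against each other within each library. ST14 had 1.63, 1.80 and 1.53 reads per SPINT1 read in resistant libraries and 3.49, 3.55 and 3.45 in parental libraries. The ratio averaged 1.66 ± 0.14 in resistant and 3.49 ± 0.05 in parental cells (SD, n = 3 each), and 3 against 3 libraries again gave an exact permutation p of 0.1. PRSS8 had 0.0608, 0.0838 and 0.0693 reads per SPINT1 read in resistant libraries, against 0.133, 0.125 and 0.126 in parental libraries (exact permutation p = 0.1). The reads of PRSS8 per ST14 read, at 0.0373, 0.0464 and 0.0452 in resistant and 0.0381, 0.0351 and 0.0367 in parental libraries, overlapped between the groups (exact permutation p = 0.2).

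**Figure D3:**
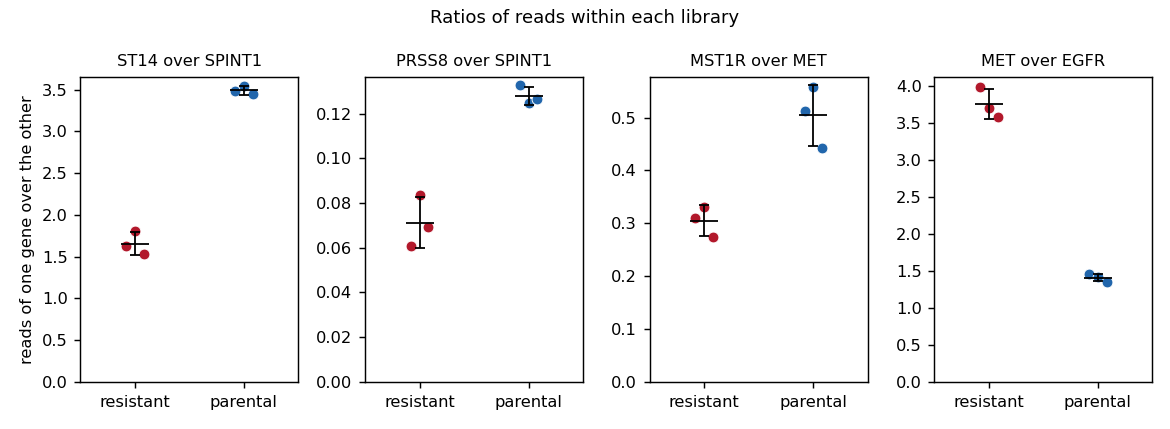
Reads of one gene over another within each library, with resistant libraries (red) left of parental libraries (blue); bars are the mean ± SD of 3 libraries and every axis starts at 0. The 3 ratios of ST14 or PRSS8 to SPINT1 and of MST1R to MET are lower in all resistant libraries, and that of MET to EGFR is higher.

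Amplification of the MET region is one form in which MET gain occurs, so the genes beside MET were read as well, although copy number itself was not measured. The nearest 3 tested genes before it were called higher per the authors' deposited table: TES, a LIM-domain protein gene, at 0.41 ± 0.10, and the caveolin genes CAV2 at 1.29 ± 0.12 and CAV1 at 0.36 ± 0.07. After MET came CAPZA2, encoding an actin-capping subunit, at 0.13 ± 0.15, ST7-AS1 at 0.29 ± 0.70 and ST7 at -0.11 ± 0.21 per the authors' deposited table, none of which passed. Only 6 genes with a mean count of 50 or more started within 5 Mb of MET, with a median of 0.25, and relative to it MET stood at -0.11 without a call. Around MST1R 47 of 78 genes were below 0 with a median of -0.09. With that median taken as fixed, MST1R stood at -0.51 relative to it (adjusted p = 0.00946).

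**Figure D4:**
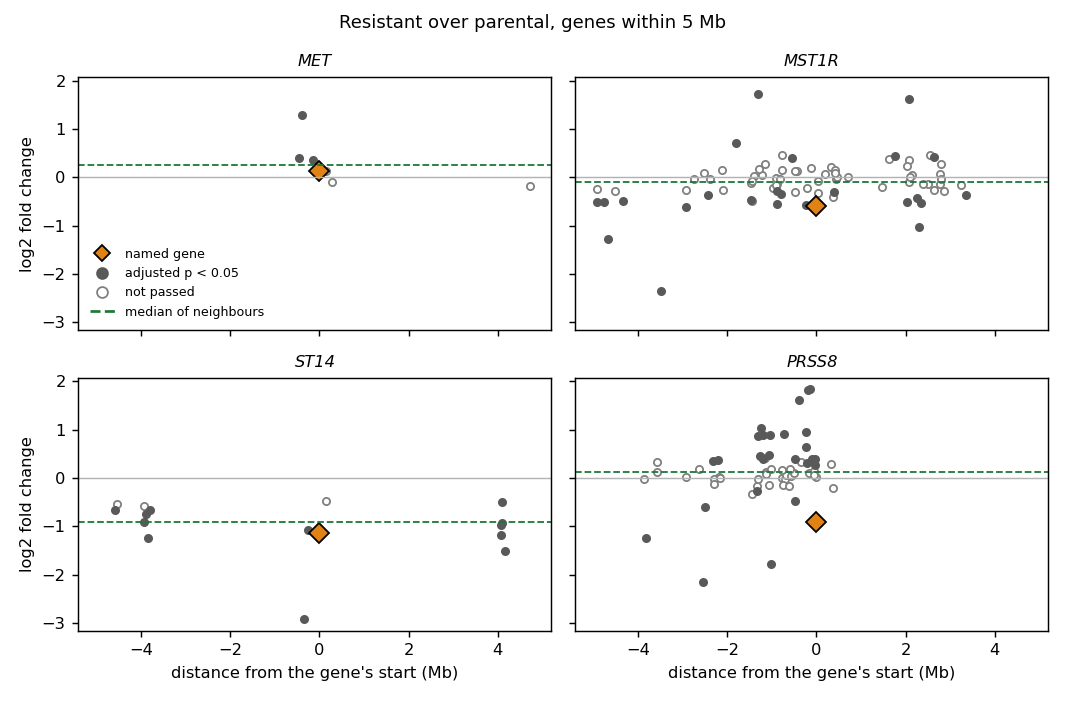
Log2 fold changes of tested genes with a mean count of 50 or more against distance from the start of MET, MST1R, ST14 and PRSS8, each drawn as an orange diamond; filled points were called and the dashed line is the neighbours' median. Genes around ST14 are all below 0, those around PRSS8 mostly above.

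Proteases able to activate HGF, MSP or an activator of these changed in both directions. Of 17 genes on that list, 8 were tested, 4 lower and 2 higher per the authors' deposited table. The members ST14, PRSS8 and TMPRSS4 are among the 8. The list's median of -0.93, against 0.02 over all tested genes, thus counts their values again and is not a separate result. The other tested genes of the list were PLAT and TMPRSS13 (lower), PLAU and KLK5 (higher) and F12 (0.25 ± 0.12, not passed). PLAT, tissue plasminogen activator, fell by 3.38 ± 0.16 per the authors' deposited table, to 37.9, 56.4 and 40.4 normalized counts in resistant libraries, against 486, 447 and 465 in parental libraries. TMPRSS13, a type II transmembrane protease, fell by 0.94 ± 0.14 per the authors' deposited table, with 114, 117 and 118 normalized counts in resistant and 220, 223 and 226 in parental libraries. Like ST14 and TMPRSS4 it is a gene of chromosome 11. PLAU, urokinase, rose by 0.84 ± 0.11 and the kallikrein gene KLK5 by 0.42 ± 0.08 per the authors' deposited table. Of 18 type II transmembrane serine proteases 7 were tested, with ST14 and TMPRSS13 called lower and 0 higher, and 8 were listed at 0, per the authors' deposited table. PRSS21, a lipid-anchored relative of prostasin, was called lower as well, at -0.41 ± 0.13 per the authors' deposited table. With PRSS8 itself counted, 2 of 4 tested lipid-anchored or type I membrane proteases were lower and 0 higher per the authors' deposited table.

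Genes with a Kunitz domain beyond the members did not share one direction. Of 9 tested genes with a Kunitz domain, SPINT1 and SPINT2 included, 4 were higher and 1 lower per the authors' deposited table (median 0.17). COL7A1, type VII collagen, rose by 1.72 ± 0.18 and the amyloid precursor gene APP by 0.45 ± 0.15, while APLP2, a relative of APP that lies beside ST14 on chromosome 11, fell by 1.14 ± 0.07, per the authors' deposited table. TFPI, at a mean count of only 4.22, was called higher too (4.26 ± 1.37), from 29 reads in resistant and 1 in parental cells. TFPI2 had no call (-0.07 ± 0.26). Of 6 tested serpins that inhibit such proteases, 2 were lower per the authors' deposited table, SERPINF2 at -0.86 ± 0.32 and SERPINE2 at -0.32 ± 0.08.

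Genes of proteins that matriptase or prostasin can cut were called in both directions. Of 16 tested of 18 in the table, 8 were higher and 4 lower per the authors' deposited table, the median being 0.29. SCNN1A, the alpha subunit of the epithelial sodium channel, fell by 2.63 ± 0.10 per the authors' deposited table, with 153, 152 and 139 normalized counts in resistant and 883, 948 and 914 in parental libraries. F2RL1, the protease-activated receptor PAR2, fell by 2.26 ± 0.21 per the authors' deposited table, to 40.1, 27.8 and 37.6 in resistant libraries against 157, 155 and 200 in parental ones. The surface glycoprotein gene CDCP1 also fell, by 0.52 ± 0.08 per the authors' deposited table. CYR61 (2.17 ± 0.10), a matricellular protein, and SCNN1G (0.92 ± 0.26), the channel's gamma subunit, rose per the authors' deposited table.

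On the receptor side, co-receptors and partners of MET were also called in both directions. Of 21 tested, 9 were lower and 4 higher per the authors' deposited table, the median being -0.37. ITGA6, the integrin subunit that pairs with beta 4 in epithelial cells, fell by 1.23 ± 0.07, the hyaluronan receptor CD44 by 1.06 ± 0.10 and ITGA3 by 0.88 ± 0.08 per the authors' deposited table. CD44 had 323, 331 and 264 normalized counts in resistant and 628, 649 and 642 in parental libraries. ITGB1 (0.83 ± 0.33), the tetraspanin gene CD151 (0.43 ± 0.07) and the glypican gene GPC1 (0.24 ± 0.09) rose per the authors' deposited table. The adaptors and transducers downstream mostly did not pass, with 6 of 25 tested higher, 2 lower and the median at 0.11 per the authors' deposited table. STAT3 (0.97 ± 0.35), PLCG1 (0.74 ± 0.19) and SRC (0.65 ± 0.20) rose, and the adaptor gene SHC1 (-0.43 ± 0.09) and RANBP9 (-0.32 ± 0.12), which encodes a MET-binding scaffold, fell, per the authors' deposited table.

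The list of genes that limit or adjust MET signalling was split, with 7 of 27 tested higher and 6 lower per the authors' deposited table, the median being 0.05. TNS4, a tensin that binds and stabilizes MET, fell by 2.64 ± 0.17 per the authors' deposited table, with 53.2, 48.0 and 47.0 normalized counts in resistant libraries, against 345, 297 and 278 in parental libraries. The ERK phosphatase gene DUSP6 (-2.23 ± 0.13) and ADAM17 (-1.05 ± 0.15), a sheddase of surface receptors, fell per the authors' deposited table. CBLB, a ubiquitin ligase of the CBL family, rose by 1.47 ± 0.26, the receptor phosphatase gene PTPRK by 1.29 ± 0.13 and SH3KBP1, a CBL partner in endocytosis, by 1.05 ± 0.25, per the authors' deposited table. In the same family CBL (-0.50 ± 0.17) and CBLC (-0.60 ± 0.13) were called lower per the authors' deposited table. CBL too starts within 5 Mb of TMPRSS4 on chromosome 11. Among 7 tested receptor kinases set beside MET, AXL (1.99 ± 0.09) and FGFR1 (1.64 ± 0.30) rose and EGFR fell per the authors' deposited table. ERBB2 (0.29 ± 0.17, adjusted p = 0.215) and ERBB3 (0.34 ± 0.16, adjusted p = 0.107) had no call per the authors' deposited table.

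**Figure D5:**
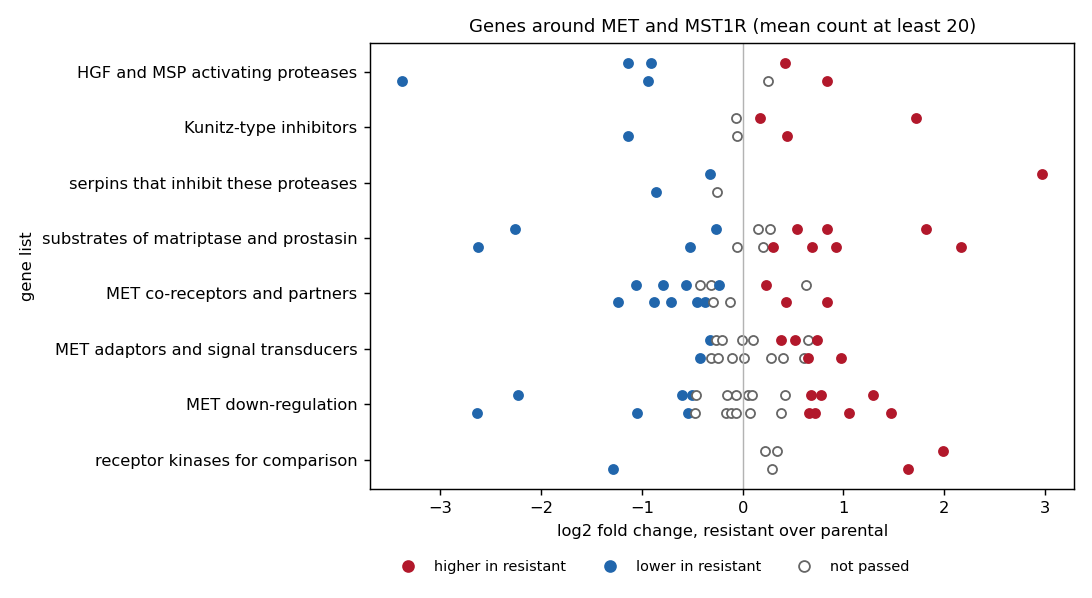
Log2 fold changes of resistant over parental cells, 1 point per tested gene with a mean count of 20 or more, by list; red was called higher, blue lower, and open points did not pass. Co-receptors of MET lie mostly below 0 and adaptors between -0.43 and 0.97, while substrates of matriptase spread from -2.63 to 2.17.

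Epithelial markers were present in the table. EPCAM had a mean count of 6334 and the keratin gene KRT18 of 15841, and of 7 tested epithelial markers 2 were higher and 2 lower, with summed fitted counts of 58970 in resistant and 56362 in parental cells by the authors' deposited table. KRT7 (0.68 ± 0.06) rose, and KRT8 (-0.65 ± 0.07) and KRT18 (-0.61 ± 0.07) fell, per the authors' deposited table. NKX2-1, a lung lineage marker, had a listed count of 0. Of 9 fibroblast markers, the cells that usually supply HGF, 5 were listed at 0 (COL1A2, DCN, LUM, PDGFRA and THY1). Those tested moved apart. PDGFRB, a growth factor receptor gene, rose by 8.17 ± 0.60, with fitted counts of 651 in resistant and 2.27 in parental cells, by the authors' deposited table. COL1A1, a collagen chain, rose by 4.11 ± 0.82 by the authors' deposited table, with 22.6, 27.8 and 28.2 normalized counts in resistant libraries, against 0.922, 1.93 and 1.85 in parental libraries. FBLN1, a matrix protein gene, fell by 2.35 ± 0.13 by the authors' deposited table, with 96.2, 89.2 and 92.1 in resistant libraries, against 489, 453 and 473 in parental libraries. The summed fitted counts, 770 in resistant and 475 in parental cells, thus rest mainly on PDGFRB and on FBLN1. Of 4 markers each of endothelium, leukocytes and hepatocytes, 2 of each set were listed at 0, VWF, KDR, PTPRC, CD3E and ALB among them. CDH5, an endothelial cadherin with a mean count of 23.4, fell by 1.20 ± 0.38 per the authors' deposited table. Leukocyte markers were not all absent. CD68 had fitted counts of 169 in resistant and 164 in parental cells, without a call (0.04 ± 0.15), by the authors' deposited table. LYZ was called lower there (-3.25 ± 1.13, adjusted p = 0.0169), from 3 reads in resistant and 20 in parental cells. The part of these marker genes in the members' results was not tested.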

How the data were processed

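Polyadenylated RNA of 6 PC9 samples was sequenced from 3′ ends with a modified bulk MARS-seq method, per the labels' protocols. The submitters' processing notes name cutadapt, STAR, HTSeq and DESeq2 with GRCh38; versions, strand setting and barcode handling are not given in the sources used here. The deposited file is the authors' own comparison. Its columns, per the file headers, are the mean of normalized counts (1 signal for all 6 libraries), the authors' log2 fold change with a standard error, a Wald score (their ratio), and the p-value before and, for 13494 genes, after adjustment. Since it holds 1 mean per gene, calls are the authors' (DESeq2's Wald test), and the planned count test was not run. Each 95% interval is the fold change plus or minus the normal quantile times the deposited standard error, and a p measures only the spread between these samples.

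Reads per library were computed from the deposited mean in Python 3.11.15 (numpy 2.4.6, sympy 1.14.0). The 6 recurring lowest means, of genes with 1 read in 1 library, give the size factors. Sets of whole reads that give the mean to its printed digits were enumerated for genes with a mean of up to 1500. From a mean of 10, they were sought only near the group means that the deposited fold change and SE give. The set kept had to give the deposited fold change within 1e-06 and, where several remained, no other within 1e-05 (1e-05 and 0.0001 for means under 100). Under a mean of 30 a lone set was taken as it was. For 6789 genes with 1 set, a mean of at least 10 and at least 10 reads per group, the fold change that the set gives differed from the deposited one by at most 2.84e-05. From a mean of 30 such a match was itself a condition for keeping the gene. The check therefore bears only on means of 10 to 30. On simulated reads 281 of 285 genes were recovered, and all 281 were right.

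Members and lists were chosen with earlier results of these data known. Named are all members, EGFR, up to 3 rises and 3 falls per list among called genes with a mean count of at least 20, and the nearest 3 tested genes on each side of MET. MST1P2, MST1L, APEH, ERBB2, ERBB3, EPCAM, COL1A1, F12, CBL, CBLC, CD68, LYZ and markers listed at 0 were named after their values were seen. So were LRIG1 and TFPI, with mean counts under 20. A few further genes under this rule are not reported here. By symbol, GENCODE 29 placed 12639 tested genes (93.7%). The alternatives were other sets of genes to adjust over, a threshold of 0.01, a 1.5-fold minimum, other centres and widths, and limma 3.58.1 on log2 of the reconstructed normalized count plus 1, chosen after seeing the data, also without each library.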

Additional observations from a re-analysis of the deposited data

How the results depend on the processing

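Of the members called lower, ST14 and MST1R kept the direction and the call under every alternative run. PRSS8 did except at a threshold of 0.01 (adjusted p = 0.0114). Genes with a mean count under 50 could not be adjusted in the filtered set. Centring on neighbours took their median as fixed. The limma fit on reconstructed counts gave 3 members lower, and leaving out each library in turn gave 3 in each of the 6 fits, from 3 to 3. Over all 12948 genes limma called 2380 lower and 2482 higher, and 2010 to 2263 lower with 1 library left out. The authors' test called fewer, 1999 lower and 1801 higher of 13494. The leave-one-out log2 folds ran from -1.19 to -1.08 for ST14, from -0.95 to -0.76 for PRSS8, from -0.63 to -0.54 for MST1R, from 0.06 to 0.18 for MET, from -0.10 to 0.00 for SPINT1 and from -0.65 to 0.44 for MST1. The MST1 value of 0.44 was without the parental library that holds 8 of its reads. The 1 member called higher, SPINT2, became 0 at a threshold of 0.01 and 0 with a 1.5-fold minimum, and its value of 0.17 became 0.15 when centred on genes within 5 Mb. MET was reversed by that centring, to -0.11. Genes of the lists called lower went to 16 with a 1.5-fold minimum, against 28 without it. The median around MET was 0.36 within 2 Mb and 0.36 within 10 Mb, around HGF 1.15 within 2 Mb (1 gene), around ST14 -1.10 within 2 Mb and around TMPRSS4 -0.54 within 10 Mb, against -0.41 within 5 Mb. No cause of these shifts was tested. Of the other list genes, 33 were called higher, and each other alternative stayed within 1.5 times of that count.

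No paired analysis was possible because the deposited table carries no replicate numbers and the reconstructed libraries could not be tied to them. The planned count fits were not run for the same table. Depth limits MST1, TMPRSS4 and HGF.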
